A study of Mus musculus with 32 samples.

Results

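The 9 genes described here move cholesterol out of cells or belong to the liver X receptor (LXR) pathway that controls this export. They are the transporters Abca1, Abcg1 and Abcg4, the lipoprotein genes Apoe and Lcat, the receptors Nr1h2 and Nr1h3, and the LXR target genes Mylip and Lpcat3. Each was found in the count table of mouse brain arteries by the Ensembl identifier of its symbol, which gave 9 of 55357 rows. The set was selected on 1 of the study's own contrasts, because Abca1 rises in the CADASIL model. For that reason the values of TgNotch3R169C against WT mice are given below as a description of these genes, with no test, and so are the values of Abca1 in the comparison that shares the same WT mice. Where calls of the 9 genes in TgNotch3R169C against WT mice are printed, nothing is read from them.

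Arteries of 32 mice were measured by poly(A)-selected, stranded RNA sequencing, 1 library per mouse and 8 mice per group. The first pair of groups was aged 3 months, namely Notch3-/- mice, which lack the receptor, and their Notch3+/+ littermates. The other groups were aged 12 months. They were TgNotch3R169C mice, which carry an X-linked phage P1-derived artificial chromosome with rat Notch3 bearing a cysteine-altering CADASIL mutation on top of the normal murine gene, and their WT littermates without it. CADASIL is an inherited small vessel disease caused by such mutations, with loss of arterial smooth muscle cells. All lines had been backcrossed onto C57BL/6, none of the mice was treated, and the sex of each mouse is not in the labels. Age and mouse line differ together between the 3-month and 12-month groups, so their effects cannot be told apart.

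Libraries held 20289487 to 54481934 counted reads. Notch3 itself lay between 13.6 and 18.7 CPM (counts scaled to library size, with TMM for composition) in Notch3-/- mice and between 66.0 and 97.4 CPM in Notch3+/+ mice. It lay between 108 and 223 CPM in TgNotch3R169C mice against 60.2 to 84.9 CPM in WT mice. These are reads assigned to the mouse gene, and how fully they count the rat transcript was not tested. Smooth muscle markers were high in every library, with group medians of 1789 to 3466 CPM summed over 10 genes. Of the 10, edgeR called 7 lower in Notch3-/- mice, beside 0.649% of all genes called. All 10 had an unadjusted p below 0.05 there, beside 7.69% of all genes, and 1 had a positive log2 difference (0.28). In 12-month WT against Notch3+/+ mice 10 of 10 were called lower, beside 7.92% of all genes called. In TgNotch3R169C against WT mice 10 of 10 had a negative log2 difference (median -0.23). Of these, 5 had an unadjusted p below 0.05, beside 7.27% of all genes, and 0 were called, beside 0.113%. Their part in the group differences of the 9 genes was not tested, and their relation to the 9 genes within groups is given below. In 7 libraries, choroid plexus markers summed to more than 1000 CPM, 1 of Notch3-/-, 2 of TgNotch3R169C and 4 of WT mice. One Notch3+/+ library held 8905 CPM of pituitary markers. In whole arteries, fewer cells of a type and less RNA per cell cannot be told apart.

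Cells cannot break down the sterol ring, so surplus cholesterol leaves through ABC transporters onto apolipoprotein particles. LXRs are nuclear receptors that sense oxysterols and related sterols, pair with retinoid X receptors on direct repeats of a short DNA motif, and switch on the genes of export. In the brain, which makes its own cholesterol, astrocytes lipidate apolipoprotein E through Abca1, and neurons and vascular cells take up the resulting particles.

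Levels of the 9 genes differed widely once divided by exon length. Apoe, the main apolipoprotein of brain lipoproteins, stood far above the others, at 2648 ± 138 CPM per kilobase of exon in WT mice (SD, n = 8). Nr1h2, which encodes LXRβ, came next at 32.3 ± 1.18 CPM per kilobase, and Nr1h3, which encodes LXRα, reached 9.69 ± 0.87 CPM per kilobase. The β form was therefore the more abundant receptor transcript in these arteries, and in each of the other 3 groups the order of the receptors was the same.

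Between the receptors lay Lcat at 22.4 ± 3.59, Abca1 at 16.8 ± 1.05, Lpcat3 at 15.9 ± 1.1 and Mylip at 14.4 ± 1.84 CPM per kilobase in WT mice. The ranges of mean ± SD of Abca1, Lpcat3 and Mylip overlapped there, so these neighbors did not differ beyond their spread. Abcg4 at 4.57 ± 1.0 and Abcg1 at 3.12 ± 0.63 CPM per kilobase closed the order, and they too overlapped. Abca1 and Lpcat3 changed places between groups, since Lpcat3 stood above Abca1 at 3 months and below it at 12 months.

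**Figure D1:**
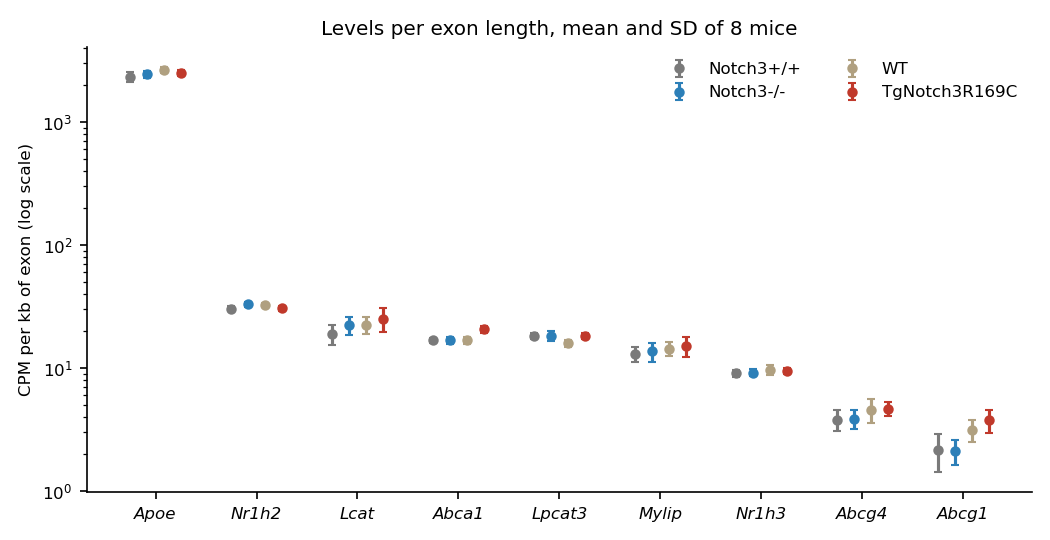
Mean CPM per kilobase of exon on a log axis for the 9 genes in the 4 groups, with bars for the SD of 8 mice. Apoe stands at 2330 to 2648, Nr1h2 at 30.4 to 32.9, and Abcg1 lowest at 2.12 to 3.75.

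Abca1 transfers cholesterol and phospholipid to lipid-poor apolipoproteins, the first step of particle formation. It ranged from 163 to 189 CPM in Notch3+/+ mice with a median of 172 CPM, and from 158 to 187 CPM in Notch3-/- mice with a median of 173 CPM. In WT mice it ranged from 152 to 184 CPM with a median of 178 CPM, and in TgNotch3R169C mice from 185 to 230 CPM with a median of 217 CPM. Each of the 8 TgNotch3R169C mice thus stood above each of the 8 WT mice, the narrowest gap being 184.9 against 184.0 CPM, while the other 3 groups lay on top of each other with means of 174.0 to 174.3 CPM.

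The fitted log2 difference (the log2 fold change) of Abca1 in TgNotch3R169C against WT mice was 0.30 (SE 0.05, 95% CI 0.19 to 0.40), a 1.23-fold difference. Groups that did not overlap were found for 0.124% of the 17731 genes tested. Abca1 was the only 1 of the 9 whose adjusted p was below 0.05, where 0.113% of all genes were called, and since the set was picked on this contrast nothing is read from that count. The call was lost with neuron markers as a covariate, with a replicate block, and in the libraries with low choroid plexus markers. It was also lost without TgNotch3R169C replicate 1 or 7 or WT replicate 3. These refits reuse the selecting contrast, so neither the call nor its loss is a test of Abca1. The log2 difference was 0.29 with choroid plexus markers as a covariate, 0.29 with neuron markers, 0.30 with macrophage markers, and 0.28 in the 6 TgNotch3R169C and 4 WT libraries with low choroid plexus markers. Neuron markers summed to a median of 759 CPM in TgNotch3R169C mice, with a range of 438 to 1300 CPM, and to 530 CPM in WT mice, with a range of 281 to 1048 CPM. Smooth muscle markers summed to 1266 to 2008 CPM in TgNotch3R169C and 1572 to 2371 CPM in WT mice, and astrocyte markers, with a positive log2 difference in 9 of 9 genes, to 2646 to 3481 against 2357 to 3138 CPM. No fit used these 2 lists as covariates. Among the 9 astrocyte markers edgeR called 0, beside 0.113% of all genes, and 1 had an unadjusted p below 0.05, beside 7.27%. Their median log2 difference was 0.15.

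Because LXRs act through direct repeats spaced by 4 bases, the sequence upstream of the start site was read for the members. RefSeq promoters of the GRCm38.p6 build, which is not the build of the counts, matched 7 of the 9 genes, all but Abcg1 and Abcg4. The letters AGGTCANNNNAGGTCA were searched on both strands in the 250 bases before each start site, with up to 3 mismatches among the 12 fixed letters. The windows of Abca1, the gene on which the set was selected, and of Lpcat3, the member called between the control groups, are shown 5′ to 3′ on the gene's own strand, with the match in capitals.
Abca1: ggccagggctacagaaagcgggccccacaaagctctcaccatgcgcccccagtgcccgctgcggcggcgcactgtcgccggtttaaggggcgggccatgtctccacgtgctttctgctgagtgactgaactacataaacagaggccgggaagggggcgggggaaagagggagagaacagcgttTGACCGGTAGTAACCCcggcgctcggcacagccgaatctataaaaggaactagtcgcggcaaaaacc
Lpcat3: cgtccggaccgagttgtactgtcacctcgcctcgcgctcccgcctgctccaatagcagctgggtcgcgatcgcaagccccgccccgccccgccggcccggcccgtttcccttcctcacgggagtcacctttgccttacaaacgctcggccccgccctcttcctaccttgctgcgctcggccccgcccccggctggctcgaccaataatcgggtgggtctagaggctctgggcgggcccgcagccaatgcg
The Abca1 window lies at chr4:53159896-53160145 on the minus strand, and its match, TGACCGGTAGTAACCC, spans positions -67 to -52 from the start site and reads as the repeat on the opposite strand of the gene, with 3 mismatches. The Lpcat3 window lies at chr6:124662854-124663103 on the plus strand and holds no match. Lcat held 1 match with 3 mismatches, AGGCCAGCCCAGGACT at -22 to -7, in the window chr8:105943403-105943652 on the minus strand. The windows of Apoe, Nr1h2, Nr1h3 and Mylip held none. A match of this kind was present in 18.5% of all 32851 promoter windows, so it describes the letters only. Binding was not tested, whether a window held a match or not.

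Abcg1 hands cholesterol to particles that already carry lipid, and Abcg4 is a close relative best known from neurons and astrocytes. Abcg1 ranged from 10.3 to 26.4 CPM in Notch3+/+ mice (median 14.4), from 11.9 to 23.3 CPM in Notch3-/- mice (median 14.5), from 17.03 to 30.3 CPM in WT mice (median 21.9), and from 21.0 to 35.2 CPM in TgNotch3R169C mice (median 26.7). The groups overlapped in every comparison, and 3 of the 8 TgNotch3R169C mice exceeded the highest WT mouse. Its log2 fold change was 0.27 in TgNotch3R169C against WT mice (SE 0.14, 95% CI -0.03 to 0.56). Over 11 other settings it ran from 0.09 with neuron markers as a covariate to 0.35 in the libraries with low choroid plexus markers.

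Abcg4 had means of 19.8 ± 3.89 CPM in Notch3+/+, 20.2 ± 3.42 CPM in Notch3-/-, 23.8 ± 5.21 CPM in WT and 24.3 ± 3.03 CPM in TgNotch3R169C mice (SD, n = 8). The differences within each age were smaller than these SDs. The log2 fold change of Abcg4 in TgNotch3R169C mice was 0.03 (SE 0.12), and its sign was not stable: it was -0.077 with neuron markers as a covariate, -0.17 in the libraries with low choroid plexus markers and -0.033 without WT replicate 4.

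**Figure D2:**
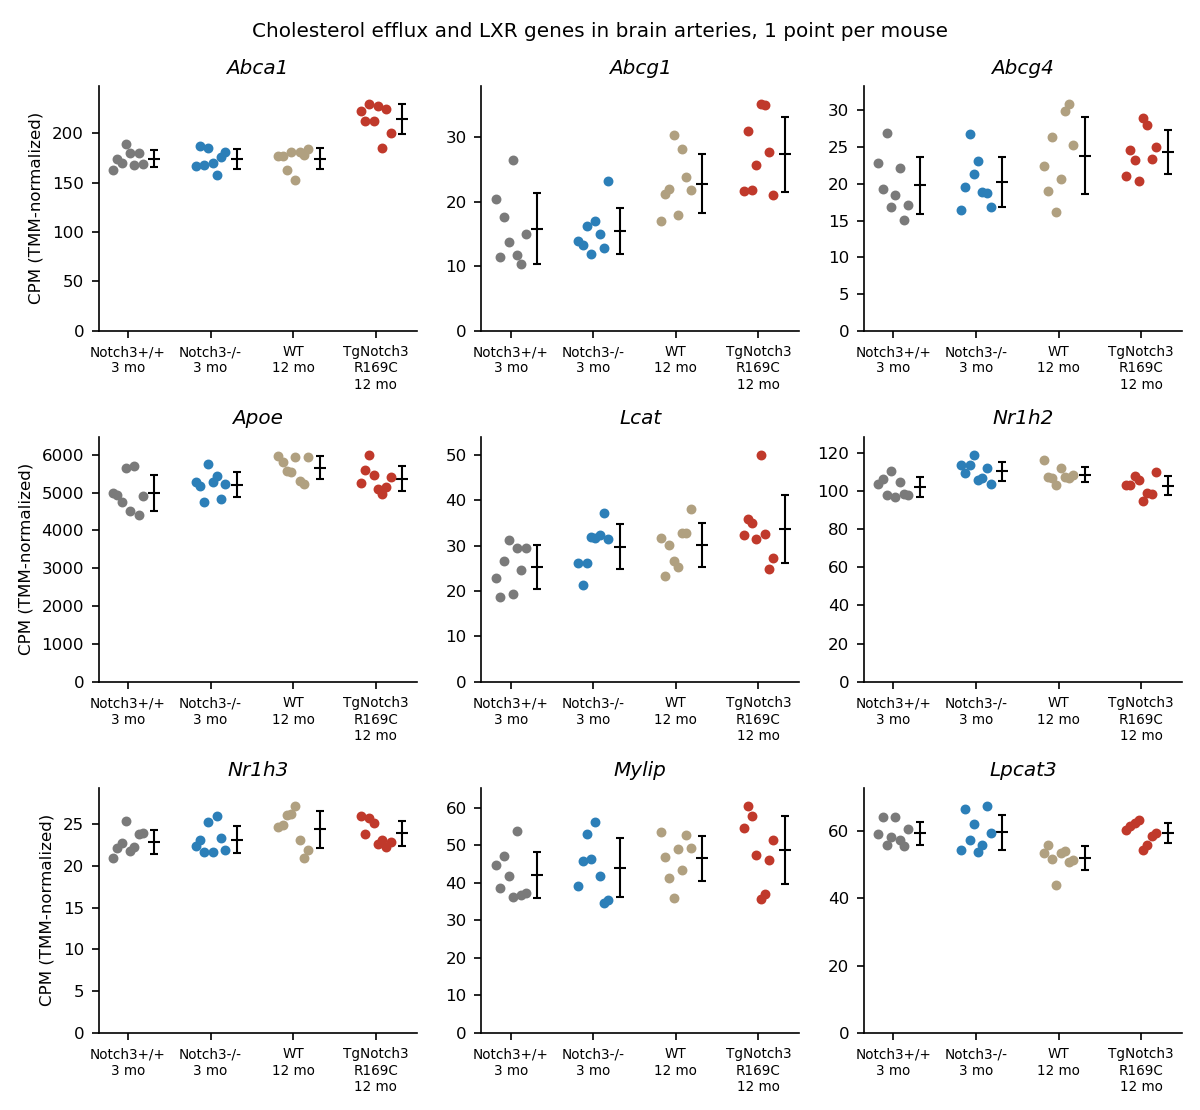
TMM-normalized CPM of each of the 9 genes, 1 point per mouse, with the mean and SD of 8 mice beside the points and axes from 0. TgNotch3R169C mice stand above the WT mice without overlap in the Abca1 panel, and WT mice lie lowest, with some overlap, in the Lpcat3 panel.

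Apoe ranged from 4396 to 5693 CPM in Notch3+/+ mice (median 4925), from 4749 to 5756 CPM in Notch3-/- mice (median 5246), from 5225 to 5970 CPM in WT mice (median 5677), and from 4960 to 5990 CPM in TgNotch3R169C mice (median 5338). While Abca1 stood higher in the CADASIL model, Apoe did not: 7 of 8 TgNotch3R169C mice lay below the WT mean, with a log2 difference of -0.08 (SE 0.06, 95% CI -0.20 to 0.05). This Apoe difference was -0.034 with neuron markers and -0.083 with choroid plexus markers as a covariate. Lcat, the enzyme that esterifies cholesterol on lipoproteins, had means of 25.3 ± 4.77, 29.8 ± 4.93, 30.1 ± 4.81 and 33.7 ± 7.52 CPM in Notch3+/+, Notch3-/-, WT and TgNotch3R169C mice. Its log2 fold change in the CADASIL model was 0.16 (SE 0.13), 0.06 without TgNotch3R169C replicate 5, and -0.06 in the libraries with low choroid plexus markers.

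The receptors differed little between the 12-month groups. Nr1h2 had a log2 difference of -0.08 in TgNotch3R169C mice (SE 0.04, 95% CI -0.16 to 0.00), with 94.6 to 110 CPM against 103 to 116 CPM in WT mice, and 3 of its 8 mice fell below the lowest WT mouse. The Nr1h2 difference was -0.047 with neuron markers as a covariate and -0.098 in the libraries with low choroid plexus markers. Nr1h3 had a log2 difference of -0.03 (SE 0.06), with 22.2 to 26.0 CPM against 21.0 to 27.2 CPM, a full overlap, and 0.045 in the libraries with low choroid plexus markers. Without 1 mouse it lay between -0.055 (WT replicate 7) and -0.0023 (WT replicate 5).

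Mylip encodes an E3 ubiquitin ligase that marks the low-density lipoprotein receptor for degradation. Its log2 fold change in the CADASIL model was 0.07 (SE 0.11), with means of 48.8 ± 9.12 against 46.5 ± 5.94 CPM in WT mice. It was 0.0065 with choroid plexus and 0.14 with neuron markers as a covariate, 0.023 without TgNotch3R169C replicate 2 and 0.13 without replicate 5. Lpcat3 inserts polyunsaturated fatty acids into membrane phospholipids, which keeps membranes fluid. It ranged from 54.4 to 63.3 CPM in TgNotch3R169C mice (median 59.9), from 44.0 to 56.0 CPM in WT mice (median 52.6), from 53.8 to 67.5 CPM in Notch3-/- mice (median 58.5), and from 55.6 to 64.2 CPM in Notch3+/+ mice (median 58.7). WT mice stood lowest, and the other 3 groups had nearly the same mean, 59.4 to 59.7 CPM. In TgNotch3R169C against WT mice the log2 fold change of Lpcat3 was 0.20 (SE 0.05, 95% CI 0.10 to 0.29), with 6 of 8 mice above the highest WT mouse.

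Loss of the receptor was the contrast in which the 9 genes could be tested. None of the 9 was called in Notch3-/- against Notch3+/+ mice, where edgeR's quasi-likelihood test called 0.649% of 17714 genes at an adjusted p below 0.05. DESeq2 called 0 of the 9 as well, and 1 of the 9 had an unadjusted p below 0.05, against 7.69% of all genes. Their median log2 fold change was 0.02, beside a median of -0.0011 over all genes.

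Abca1 differed between these groups by a log2 difference of -0.01 (95% CI -0.09 to 0.08, adjusted p = 0.994). The gene with an unadjusted p below 0.05 was Nr1h2, at 103 to 119 CPM in Notch3-/- mice (median 111) and 96.6 to 111 CPM in Notch3+/+ mice (median 101). Every Notch3-/- mouse lay above the Notch3+/+ mean and 4 of 8 above its highest mouse, and the log2 fold change of 0.11 (SE 0.04) did not pass the adjustment (adjusted p = 0.320). Lcat had a log2 difference of 0.23 (SE 0.12, adjusted p = 0.732), and the other 6 genes lay between -0.04 and 0.06.

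Abcg1 lies on chromosome 17, as does Notch3, with 43 genes between them in the GENCODE M21 annotation. Of these, 17 were tested in Notch3-/- mice and 1 was called, AC138228.3, which was lower, beside 0.649% of all genes called. Abcg1 had a log2 difference of -0.04 (95% CI -0.44 to 0.35, adjusted p = 0.990) in these mice, a wide interval that reflects the spread of its values between mice.

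**Figure D3:**
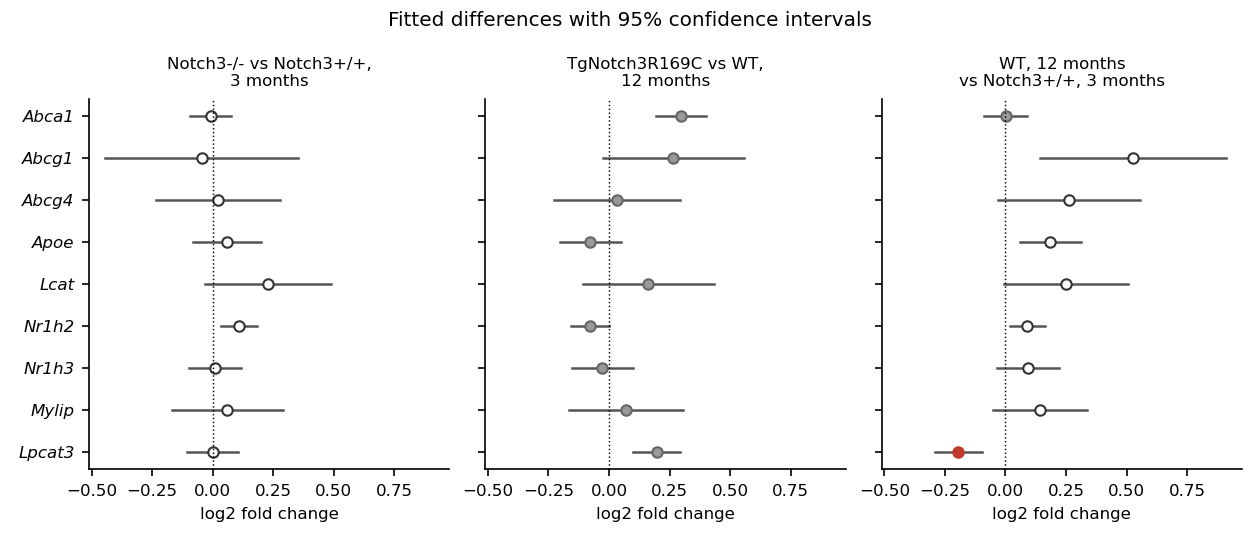
Log2 fold changes of the 9 genes with 95% confidence intervals in the 3 comparisons. Red points passed an adjusted p of 0.05, white points did not, and gray points are values that were not tested, because the set was selected on that contrast or shares its WT mice. The whole intervals of Abca1 and Lpcat3 lie right of 0 in the CADASIL model, and that of Nr1h2 does in Notch3-/- mice. Between the control groups the interval of Lpcat3 lies left of 0, and those of Abcg1, Apoe and Nr1h2 lie right of it.

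Between the control groups, 12-month WT against 3-month Notch3+/+ mice, edgeR called 7.92% of 17643 genes. Of the 8 tested members 1 passed, Lpcat3, and beside that share nothing is read from the count. Lpcat3 was lower in the 12-month WT mice, with a log2 difference of -0.19 (SE 0.05, adjusted p = 0.0180), and 7 of 8 WT mice fell below the lowest Notch3+/+ mouse. The call was lost with choroid plexus markers as a covariate (log2 fold change -0.19, adjusted p = 0.124) and without the libraries rich in those markers (-0.20, adjusted p = 0.0557), while the difference kept its size. Choroid plexus markers summed to a median of 4843 CPM in WT mice, with a range of 297 to 26245 CPM, and to 359 CPM in Notch3+/+ mice, with a range of 326 to 669 CPM. The Lpcat3 difference and that of the CADASIL model rest on the same low WT values, so they are not independent. These WT mice are also those of the contrast that selected the set.

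Abcg1 was higher in the 12-month WT mice by a log2 difference of 0.53 (SE 0.18, adjusted p = 0.0827), or 0.31 with choroid plexus markers as a covariate, and Apoe by 0.19 (SE 0.06, adjusted p = 0.0656). In both genes every WT mouse lay above the Notch3+/+ mean, and neither passed the threshold. DESeq2 called both, with adjusted p values of 0.0434 for Abcg1 and 0.0222 for Apoe. Abca1 had a log2 difference of 0.00 (95% CI -0.09 to 0.09).

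The wider pathway was read from 8 lists with 96 genes, of which 85 passed the filter on low counts. In Notch3-/- mice edgeR called 0 of the 85, beside 0.649% of all genes. Of the 85, 8 had an unadjusted p below 0.05, beside 7.69% of all genes, so nothing about the pathway is read from these counts. DESeq2 called 1, Lipg, an endothelial lipase, which was lower. Between the control groups 11 of the 85 were called, 9 higher and 2 lower, which is 12.9% beside 7.92%. For TgNotch3R169C mice, values follow for the list of LXR target genes and for some abundant genes of the others.

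Among 16 other LXR target genes, 11 passed the filter and 0 were called in the CADASIL model by edgeR, with 4 at an unadjusted p below 0.05, beside 7.27% of all genes. These 4 are named for those p values, after they were seen. Scd2, a fatty acid desaturase and the most abundant of the list, lay at 1130 to 1609 CPM in TgNotch3R169C mice against 864 to 1141 CPM in WT mice, a log2 difference of 0.39 (SE 0.08, adjusted p = 0.121). Srebf1, the transcription factor of lipid synthesis that LXRs induce, had 0.37 (adjusted p = 0.172), Fasn, the fatty acid synthase, 0.35 (adjusted p = 0.254), and Scd1, a second desaturase, 0.48 (adjusted p = 0.450). DESeq2 called Srebf1 and Scd2 of these. Pltp, which transfers phospholipid between lipoproteins and is the second most abundant gene of the list, had a log2 difference of -0.12 (adjusted p = 0.764).

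The abundant genes of the other lists that follow did not pass in the CADASIL model, which says nothing of the rest of those lists. They were the corepressor Ncor1 (a log2 difference of 0.05), Cav1 and Npc2 in cholesterol storage and transport (0.00 and -0.08), Apod and Clu among lipoprotein acceptors (0.27 and -0.10), Lrp1 among uptake receptors (0.07), Abca9 and Abca2 among other transporters (-0.05 and -0.13), and Agpat3 and Mboat7 among acyltransferases (0.01 and 0.05). Between the control groups the transporter list held 6 of these calls among its 11 genes, with a median log2 difference of 0.056. They were Abca2, Abca5, Abca7 and Abca8a, higher by 0.34, 0.29, 0.43 and 0.57, and Abca9 and Abcg2, lower at -0.30 and -0.28. Scd1 (0.40), Pltp (0.25), Lipa, the lysosomal acid lipase (0.30), Gramd1b, a sterol transfer protein (0.52), and Lpcat2 (0.34) were also higher. With choroid plexus markers as a covariate 0 of these 11 calls remained.

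**Figure D4:**
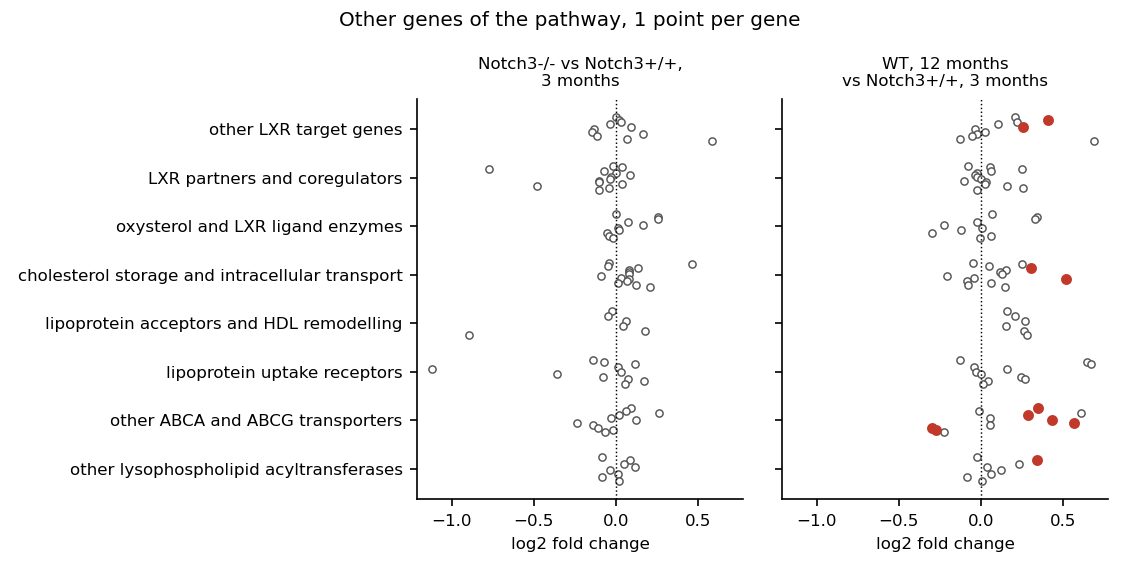
Log2 fold changes of the 85 tested genes of the 8 pathway lists in 2 comparisons, Notch3-/- against Notch3+/+ mice and the control groups, 1 point per gene, red where the adjusted p was below 0.05. No red point appears for Notch3-/- mice, and 11 appear between the control groups.

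Within groups, most of the 9 genes varied with the markers of a cell type. Log2 CPM minus the group mean was correlated with the mean log2 CPM of 10 marker lists over the 32 mice, 90 relations in all. Two-sided permutation p values were adjusted over them, and 18 passed by Pearson r. No member stands in any of the marker lists, but both sides of a relation come from the same library.

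Lcat followed astrocyte markers most closely (r = 0.78, rho = 0.78, permutation, adjusted p = 0.0009), and r was 0.72 without the 2 mice farthest from the median of those markers. Lcat ran against perivascular fibroblast markers (r = -0.50, permutation, adjusted p = 0.0453), where rho did not pass (rho = -0.39, permutation, adjusted p = 0.117). Abcg4 followed neuron markers (r = 0.65, rho = 0.63, permutation, adjusted p = 0.00495), with r = 0.58 without the 2 farthest mice. Mylip followed macrophage and microglia markers (r = 0.62, rho = 0.58, permutation, adjusted p = 0.00501), with r = 0.49 without them.

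Apoe and Nr1h2 varied with macrophage, pericyte and smooth muscle markers. For macrophage and microglia markers, r was 0.60 for Apoe (rho = 0.63, permutation, adjusted p = 0.00619) and 0.63 for Nr1h2 (rho = 0.56, permutation, adjusted p = 0.00501), and 0.68 and 0.51 without the 2 farthest mice. For pericyte markers r was 0.53 for Apoe and 0.64 for Nr1h2, and for smooth muscle markers 0.55 and 0.63, with adjusted permutation p values of 0.00495 to 0.0204. Neither passed for endothelial markers (r = 0.32 and 0.35, permutation, adjusted p = 0.232 and 0.202) or perivascular fibroblast markers (r = 0.37 and 0.45, permutation, adjusted p = 0.139 and 0.0738). Abcg1 ran the other way, with r = -0.68 for macrophage and microglia markers (rho = -0.54, permutation, adjusted p = 0.00225, r = -0.60 without the 2 farthest mice), -0.55 for pericyte markers and 0.58 for ependymal markers. Abcg1 also ran against perivascular fibroblast markers (r = -0.54, permutation, adjusted p = 0.0128) and endothelial markers (r = -0.49, permutation, adjusted p = 0.0453). For endothelial markers its rho did not pass (rho = -0.46, permutation, adjusted p = 0.064). For neuron markers the rho of Abcg1 passed (rho = 0.61, permutation, adjusted p = 0.0117) and its r did not (r = 0.45, permutation, adjusted p = 0.0855). Abcg1 was highest of its group in Notch3-/- replicate 8 (23.3 CPM), WT replicate 4 (30.3 CPM) and TgNotch3R169C replicate 5 (35.2 CPM). These libraries are among the 7 rich in choroid plexus markers, whose part in the Abcg1 relations was not tested. Nr1h2 also ran against neuron markers (r = -0.48, rho = -0.50, permutation, adjusted p = 0.0453) and with red blood cell markers (r = 0.49, rho = 0.49, permutation, adjusted p = 0.0459). Lpcat3 passed for perivascular fibroblast markers alone (r = 0.48, permutation, adjusted p = 0.0431), where r dropped to 0.38 without the 2 farthest mice and rho did not pass (rho = 0.40, permutation, adjusted p = 0.131).

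Abca1 and Nr1h3 passed with none of the 10 lists. For Abca1, r ranged from -0.23 with oligodendrocyte markers to -0.04 with astrocyte markers, and the lowest adjusted permutation p was 0.364. TgNotch3R169C replicate 5 was 1 of the 2 farthest mice for smooth muscle, pericyte, endothelial, fibroblast, macrophage and red blood cell markers, with the lowest pericyte, fibroblast and macrophage marker sums of its group.

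**Figure D5:**
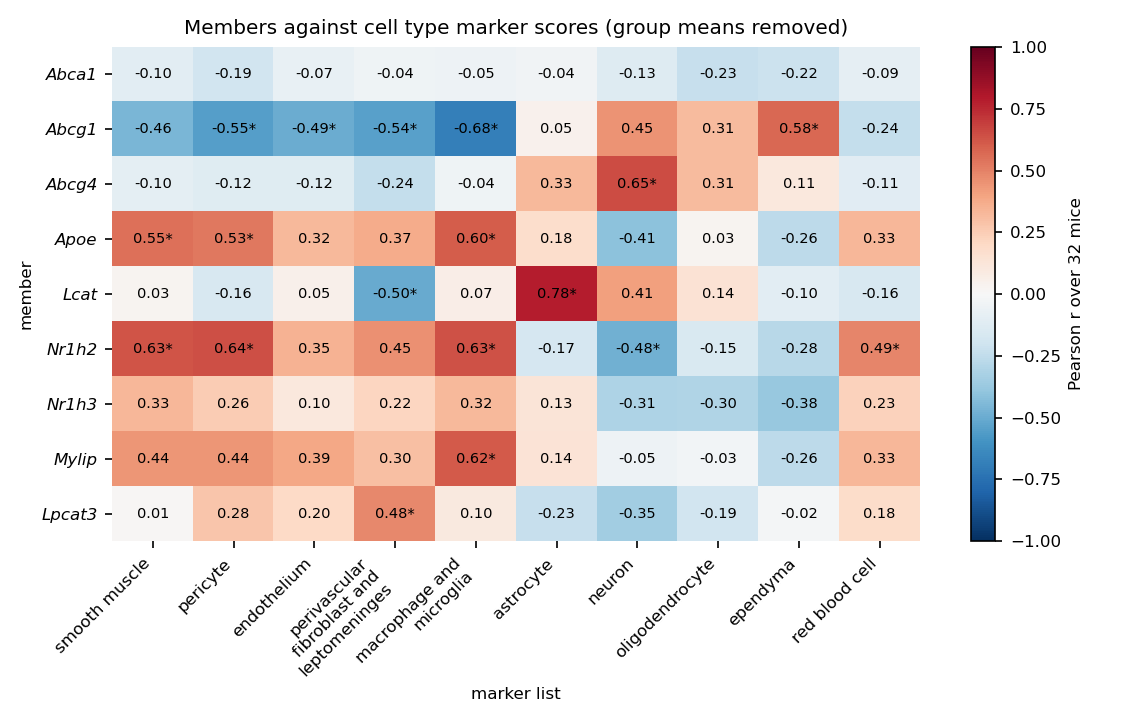
Pearson r over 32 mice between each of the 9 genes and the marker score of each of 10 cell types, group means removed, from blue (-1) through white to red (1), with an asterisk where the permutation p adjusted over 90 relations was below 0.05. The Abca1 row is pale throughout, and the deepest cell is Lcat with astrocyte markers at 0.78.

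The members did not vary as 1 block. Of 36 pairs, 3 passed after adjustment over the pairs: Abcg1 with Nr1h2 (r = -0.66, rho = -0.70, permutation, adjusted p = 0.00756), Apoe with Nr1h2 (r = 0.59, rho = 0.60, permutation, adjusted p = 0.0151), and Abcg4 with Nr1h3 (r = -0.55, rho = -0.57, permutation, adjusted p = 0.0379). Without the 2 farthest mice r was -0.59, 0.50 and -0.56. Abca1 had r between -0.19 and 0.21 with the other 8, and the lowest adjusted permutation p of these was 0.553.

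Over all 15541 genes with a mean of at least 1 CPM, the 8 whose within-group pattern over the 32 mice was most like that of Abca1 were Dennd1b (Pearson r = 0.75), Zfp709 (0.66), Pgm3 (0.58), Iws1 (0.58), 9330136K24Rik (0.57), Aph1b (0.56), Trp53inp1 (0.56) and Ap4e1 (0.56). None of the other 8 members and none of the pathway genes is among them. These values describe likeness only, since they are the top of a search over all genes.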

How the data were processed

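The deposited table holds, for each Ensembl identifier and library, the count of reads that the authors assigned to it, unscaled. The submitters' processing notes name bcl2fastq 2.20.0.422, cutadapt 1.10, Bowtie2 2.2.8, STAR 2.5.3a, HTSeq 0.6.1p1 and the build mm39. The annotation release is not given in the sources used here. All columns of the table were matched to a library by name, and 52081 of 55357 identifiers received a symbol. Libraries of a group differed by at least 10.9 times counting noise (chi-square per gene), so none was a duplicate.

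Counts were analyzed in R 4.3.3 with edgeR 4.0.16: filterByExpr, TMM, glmQLFit and glmQLFTest on the pair of groups in question, with Benjamini-Hochberg adjustment over all genes tested. A gene counts as called at an adjusted p below 0.05. SEs and 95% CIs come from that fit. The procedure was tested on simulated data. Replicates are separate mice. CPM per kilobase used the exon length of GENCODE M21 (GRCm38). Log2 CPM used a prior count of 2.

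The 9 members, the pathway lists and the marker lists were chosen with earlier results of these data known. Named genes are the members, Notch3, the called genes of each pathway list (at most 6 per comparison) or otherwise its 2 most abundant, and the 8 genes most like Abca1. Correlations used 100000 permutations within groups. Choroid plexus and pituitary markers were left out of them, since a few libraries stand far above the rest. Alternatives were DESeq2 1.42.0, RLE scaling, other filters, a 4-group fit, a replicate block, covariates for markers and Xist, and fits without 1 mouse. The use of low choroid plexus libraries alone was added after seeing the data. Some genes of the pathway lists, and the count of calls over all these lists in TgNotch3R169C mice, are not reported here.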

Additional observations from a re-analysis of the deposited data

Results flagged for a closer look

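In each of the 9 genes and 4 groups, 36 sets of 8 mice, the most extreme mouse was compared with its neighbor. Chance flags about 1 in 20 such sets, and 3 were flagged. Lcat in TgNotch3R169C replicate 5 was highest at 49.9 CPM with the next mouse at 35.8 CPM, a gap of 0.567 of the group's range. Abcg1 in Notch3-/- replicate 8 was highest at 23.3 CPM with the next at 17 CPM, a gap of 0.551 of the range. Lpcat3 in WT replicate 4 was lowest at 44.0 CPM with the next at 50.8 CPM, a gap of 0.570 of the range. These 3 libraries are among the 7 with choroid plexus markers above 1000 CPM, at 14318, 25633 and 26245 CPM, and the part of those markers in the 3 values was not tested. Without its extreme mouse, Lcat had a log2 fold change of 0.06 in the CADASIL model in place of 0.16, Abcg1 had -0.15 in Notch3-/- mice in place of -0.04, and Lpcat3 had -0.16 between the control groups in place of -0.19 and was still called.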

How the results depend on the processing

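Abca1 stood higher in TgNotch3R169C than in WT mice in every alternative run, with log2 fold changes of 0.28 to 0.30 over 11 settings and 0.27 to 0.33 over the 16 fits without 1 mouse. These refits reuse the mice of the selecting contrast, so they describe the value and are no support for it. The number of the 9 genes called in that contrast, from which nothing is read because the set was selected on it, was 1, and 2 with DESeq2 and with macrophage markers as a covariate, and 0 with the replicate block, with neuron markers as a covariate and in the libraries with low choroid plexus markers; without 1 mouse it was 0 to 1, and it was 0 without TgNotch3R169C replicate 1 or 7 or WT replicate 3. All genes called there numbered 20, and 75 with DESeq2, 6 with the replicate block, 10 with neuron markers, 2 in the low choroid plexus libraries, and 11 to 26 without 1 mouse.

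In Notch3-/- mice 0 of the 9 were called under every alternative. Genes called numbered 115, and 282 with DESeq2, 174 in the 4-group fit, and 78 to 141 without 1 mouse. Values near 0 changed sign there. Lpcat3 had 0.0022 with RLE scaling, 0.0104 with no filter, 0.0050 with at least 10 counts in every library, 0.0025 with DESeq2, 0.0063 with neuron and 0.0118 with macrophage markers, and 0.0039 in the low choroid plexus libraries. Abca1 had 0.0027 with no filter and 4.68e-05 with macrophage markers, a covariate with which Abcg1 had 0.067 and Nr1h3 -0.00055, and Abcg4 had -0.0044 with neuron markers. Without 1 mouse the ranges were -0.019 to 0.025 for Lpcat3, -0.016 to 0.020 for Abca1, -0.15 to 0.11 for Abcg1, -0.041 to 0.099 for Abcg4 and -0.0098 to 0.043 for Nr1h3.

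Between the control groups the number of members called was 1, and 3 with DESeq2 or macrophage markers, 2 in the 4-group fit or with neuron markers, 0 with choroid plexus markers or in the libraries low in them, and 1 to 2 without 1 mouse (Abcg1 without Notch3+/+ replicate 5, and Apoe without Notch3+/+ replicate 4 or 6, were added). All genes called numbered 1398, and 2362 with DESeq2, 715 with the replicate block, 263 with choroid plexus markers, 402 in the libraries low in them, and 895 to 1621 without 1 mouse. The cause of these changes was not tested.

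Nothing in the labels ties mice of equal replicate number, and the correlations of such pairs were not all above 0.1, so the fits carry no block. Correlations of their deviations ran from -0.24 to 0.45 in the CADASIL contrast, -0.15 to 0.38 in Notch3-/- mice and -0.18 to 0.30 between control groups, and 1, 4 and 2 of 8 mice correlated best with their own number, which for the 4 in Notch3-/- mice is a hint from the data and not from the design. The replicate block left 97 calls over all genes in Notch3-/- mice.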
